A study of Mus musculus with 12 samples.

Results

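Flavin monooxygenases are enzymes of the endoplasmic reticulum that use FAD, NADPH and oxygen to add an oxygen atom to nitrogen or sulfur in drugs, dietary amines and some of the body's own metabolites. Fmo1 oxygenates many drugs and makes taurine from hypotaurine, Fmo2 is the main form in the lung of most mammals, and Fmo4 is a little studied form with few known substrates. Fmo5 differs from the others in acting chiefly on ketones, by Baeyer-Villiger oxidation, and is made in liver and in gut epithelium. The 4 genes Fmo1, Fmo2, Fmo4 and Fmo5, of 19935 genes measured, are described here across all arrays of a mouse colitis study. They were chosen by gene symbol, with earlier results of these arrays in view, among them the fall of Fmo4 under dextran sulfate sodium in wild-type mice, so that comparison is given as a description without a p-value.

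The study used male mice of 8 to 10 weeks in a cross of genotype and treatment. Transgenic animals (TG) carried Villin-Claudin-2, named for villin, a protein of the gut epithelial brush border, and for a tight junction pore protein, and the others were wild-type littermates (WT). Each genotype drank either water or 4% (w/v) dextran sulfate sodium (DSS), a polymer that injures the colon epithelium, over 10 days. Affymetrix arrays, 3 per group and 12 in all, took RNA whose source is labelled colon epithelial cells. Since no label ties an array to an animal of its own, the p-values reflect only the spread among these samples, part or all of which may be technical. Each value is a log2 signal minus the 12-array median of its probe set. They compare arrays and give no level of one gene against another.

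The 3 WT DSS arrays stood apart from the other 9 and from each other. Of 28815 probe sets, 677 to 3795 were over 1 log2 unit away from their median on those 3, against 22 to 285 on the other 9. On WT DSS replicate 2 all 18 pan-epithelial markers were below 0, with a median of -2.13, while 17 of 17 fibroblast and 16 of 16 endothelial markers were above 0, with medians of 2.12 and 2.90. Neutrophil and macrophage medians on that array were 3.48 and 2.33, and the adipocyte median was -0.30. On WT DSS replicates 1 and 3 the pan-epithelial medians were -0.10 and 0.06. Because the values are centred, no summed level of a marker list can be given and no marker can be placed at 0, so the labelled cell type could not be checked on an absolute scale. In bulk RNA, fewer cells of a type and less RNA per cell cannot be told apart. For comparisons with the WT DSS group, the members' values are given with and without WT DSS replicate 2.

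Fmo4, Fmo1 and Fmo2 lie next to each other on chromosome 1 in the RefSeq annotation, and Fmo5 lies on chromosome 3. The 250 bases before a RefSeq start (GRCm38.p6) are shown for Fmo4, the member with the lowest WT DSS values, and for its neighbour Fmo2. Fmo2 was also below its WT water values on WT DSS replicates 1 and 3 (-0.94 and -0.49). It went the other way on replicate 2 alone (1.77). Both windows lie on the minus strand, Fmo4 at chr1:162812550-162812799 and Fmo2 at chr1:162898759-162899008, and the Fmo4 start lies inside the span of the annotated gene. Fmo2 has a second RefSeq start, described but not shown. Capitals mark the words GTTAA, part of the site of the epithelial factor HNF1, CAAAG, part of the site of HNF4, and AGGTCA, the core word of many nuclear receptor sites, on either strand.

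Fmo4: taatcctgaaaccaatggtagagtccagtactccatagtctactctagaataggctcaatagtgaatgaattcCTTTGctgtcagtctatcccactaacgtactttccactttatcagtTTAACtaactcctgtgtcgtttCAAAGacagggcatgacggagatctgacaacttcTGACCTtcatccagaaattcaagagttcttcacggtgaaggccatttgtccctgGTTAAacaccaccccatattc

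Fmo2: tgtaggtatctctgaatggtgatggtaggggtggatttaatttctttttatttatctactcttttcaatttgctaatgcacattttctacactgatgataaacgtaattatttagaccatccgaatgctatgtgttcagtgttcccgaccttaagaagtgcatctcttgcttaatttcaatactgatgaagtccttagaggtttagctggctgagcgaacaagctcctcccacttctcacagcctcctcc

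The Fmo4 window held GTTAA in 2 places, which 21.7% of 32851 such windows hold at least once, and CAAAG in 2 places, which 48.6% hold. It held AGGTCA once, against 14% of windows, within the longer word TNAAGGTCA of estrogen-related receptors, which 1.14% hold. None of the 13 words searched was in the Fmo2 window shown. The window of the second Fmo2 start held CAAAG in 3 places and AGGTCA once, again within TNAAGGTCA. The Fmo5 window held none of these 3 words but had GGGCGG, the GC box, which 32.7% hold, and 56% of its bases were G or C against 42.4% for Fmo4 and a median of 52.4%. The words were chosen after the values were seen, so a low share among all windows does not make a match evidence. A word match is a description of letters and shows no binding, and no window of Fmo1 was at hand.

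Fmo4 had its 3 lowest values on the 3 WT DSS arrays. On the WT water arrays Fmo4 stood at 0.31, 0.34 and 0.23, and on the WT DSS arrays at -1.78, -2.19 and -2.28. The TG water arrays gave 0.13, -0.11 and -0.41, and the TG DSS arrays gave -0.59, 0.75 and 0.11. The WT DSS values thus lay below the whole range of the other 9 arrays, which ran from -0.59 to 0.75. As group means the order was 0.30 ± 0.06 (SD, n = 3) for WT water, 0.09 ± 0.67 for TG DSS, -0.13 ± 0.27 for TG water and -2.08 ± 0.27 for WT DSS. The neighbours among the upper 3 differed by less than the larger of their SDs, whereas WT DSS lay apart from TG water by more than either SD.

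In WT mice the DSS difference of Fmo4 was -2.38 ± 0.29 in log2 units (± SE, with n = 3 in each group), a 5.2-fold lower signal. It was 1 of the 4 members to pass in limma, where 0.171% of all genes did, and the 1 member whose arrays did not overlap, where 16.1% of all genes did not. As this contrast was known when the genes were chosen, nothing is read from those counts. The size changed little, at -2.32 ± 0.32 without WT DSS replicate 2. On WT DSS replicates 1, 2 and 3 the pan-epithelial medians were -0.10, -2.13 and 0.06. Of these markers 5 of 18 were lower without overlap. Absorptive colonocyte medians were -0.18, -2.12 and 0.20, and 6 of 19 markers were lower without overlap. Marker lists of 3 other cell types had medians mostly above those of the WT water arrays, with 0 markers passing in limma. For neutrophils they were 1.42, 3.48 and 0.24, against -0.25 to 0.02 on WT water arrays, and 9 of 14 markers were higher without overlap. For T and NK cells they were 0.19, 0.33 and 0.26, against -0.17 to 0.04, and 4 of 13 markers did not overlap. For enteric neurons and glia they were 0.12, 1.02 and 0.42, of which the first lay below the 0.27 of WT water replicate 2, and 3 of 10 markers did not overlap. Macrophage, fibroblast and endothelial lists did not rise above the WT water arrays on replicate 3. Their medians on replicates 1, 2 and 3 were 1.12, 2.33 and -0.08, then 0.60, 2.12 and -0.22, then 0.70, 2.90 and -0.27. Of their markers 3 of 14, 2 of 17 and 0 of 16 were higher without overlap. The part of any of these cells in the Fmo4 difference was not tested. The limma call was less stable than the size of the Fmo4 difference. It was lost without any 1 of the 6 water arrays and held without any 1 of the 6 DSS arrays. Differences ran from -2.53 to -2.28 over the 12 omissions.

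Under DSS, Fmo4 was higher in TG than in WT by 2.17 ± 0.29 (4.51-fold, n = 3 arrays per group; limma adjusted p = 0.0479), with the 3 TG arrays above the 3 WT arrays. This passed for 1 of 4 members and for 0.0401% of all genes, while 19% of all genes had arrays that did not overlap. The WT DSS arrays are those that drew attention to Fmo4, so this p-value is not independent evidence. The call was lost without any 1 of 9 arrays, namely all 6 water arrays, WT DSS replicate 2 (2.12 ± 0.32, limma adjusted p = 0.0637) and TG DSS replicates 2 and 3 (1.84 and 2.16). It held without WT DSS replicate 1 or 3 or TG DSS replicate 1.

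The DSS change of Fmo4 within TG mice was 0.22 ± 0.29 (limma adjusted p = 1), with overlapping arrays. The interaction, which tests the DSS change in TG against that in WT, was 2.59 ± 0.41 for Fmo4 and did not pass (limma adjusted p = 0.797). No gene passed the interaction in limma (0% of 19935), and 1167 had an unadjusted p under 0.05, Fmo4 among them at 7.71e-05. Without WT DSS replicate 1 it was 2.75 ± 0.43 and passed (limma adjusted p = 0.02), and without replicate 2 it was 2.54 ± 0.44 and did not (limma adjusted p = 0.362). The interaction contains the DSS change in WT that was known when the genes were chosen, so these p-values are not independent evidence.

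**Figure D1:**
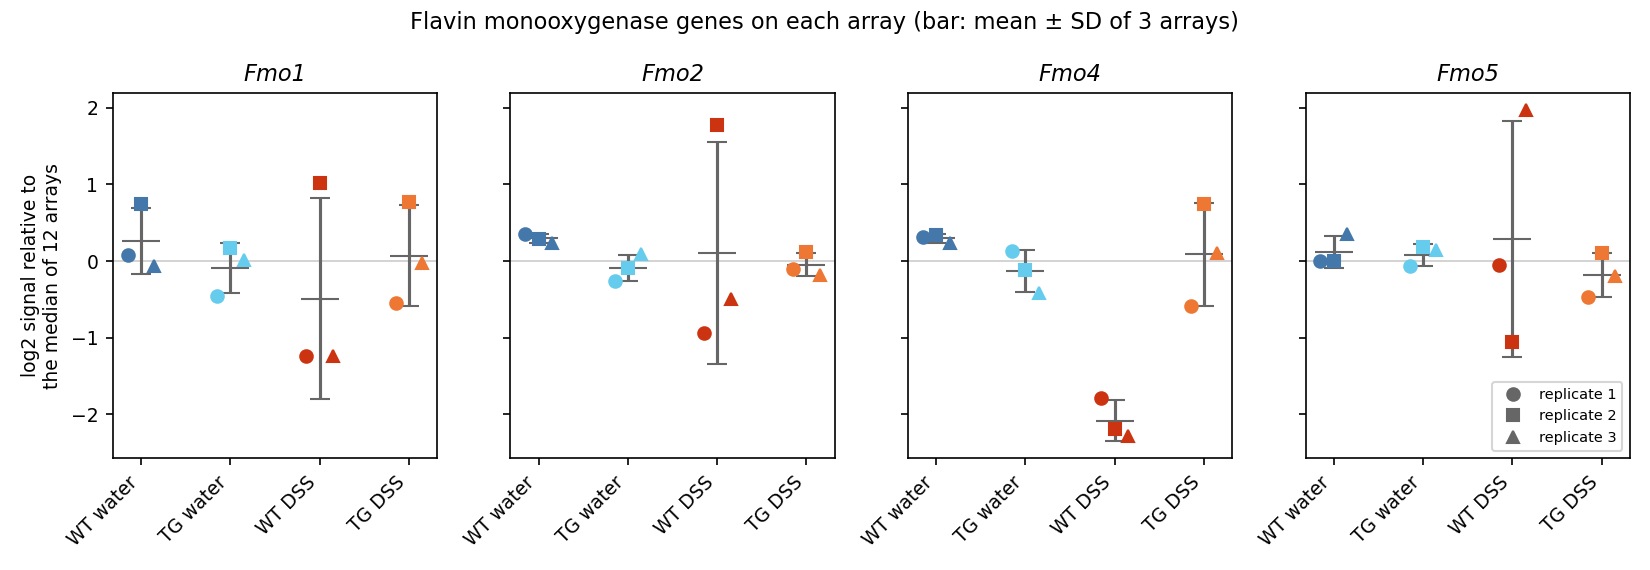
Log2 signal of each flavin monooxygenase gene relative to its median over 12 arrays (y axis) by group (x axis), with 1 point per array, a shape per replicate number and a bar for the mean ± SD of 3 arrays. Fmo4 lies between -2.28 and -1.78 on the WT DSS arrays, while the WT DSS arrays of the other 3 genes spread to both sides of their water arrays.

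Fmo1, the drug and hypotaurine oxygenase, split the WT DSS arrays. Fmo1 stood at -1.24, 1.02 and -1.24 on WT DSS replicates 1, 2 and 3, against 0.08, 0.75 and -0.07 on the WT water arrays. The TG water arrays gave -0.45, 0.17 and 0.02, and the TG DSS arrays gave -0.55, 0.77 and -0.02. WT DSS replicates 1 and 3 were the lowest of the 12 and replicate 2 the highest. Its group means ran from 0.26 ± 0.43 in WT water through 0.07 ± 0.66 in TG DSS and -0.09 ± 0.32 in TG water to -0.49 ± 1.31 in WT DSS, and each neighbour in that order differed by less than the larger SD. The DSS difference of Fmo1 in WT was -0.74 ± 0.57, -1.50 ± 0.36 without WT DSS replicate 2 and -0.37 without replicate 1 or 3, none of which passed.

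Fmo2, the form best known from lung, showed the same split over a wider range. Fmo2 stood at -0.94 and -0.49 on WT DSS replicates 1 and 3 and at 1.77 on replicate 2, the highest of all arrays. Its WT water values lay close together at 0.36, 0.29 and 0.24, its TG water values were -0.26, -0.09 and 0.09, and its TG DSS values were -0.10, 0.12 and -0.18. The order of means was 0.30 ± 0.06 for WT water, 0.11 ± 1.45 for WT DSS, -0.05 ± 0.15 for TG DSS and -0.09 ± 0.17 for TG water, with neighbours again closer than the larger SD. The DSS difference of Fmo2 in WT was -0.18 ± 0.54 with all arrays. Without WT DSS replicate 2 it was -1.01 ± 0.15 and passed, as 0.461% of all genes did. Without replicate 1 or 3 it turned to 0.34 and 0.12, so single arrays decide the value. As this contrast was known when the genes were chosen, nothing is read from that call. On WT DSS replicate 2 the fibroblast and endothelial medians were 2.12 and 2.90. Other lists were high there too, with medians of 3.48 for neutrophils, 2.33 for macrophages and 1.02 for enteric neurons and glia. The adipocyte median was -0.30. On WT DSS replicates 1 and 3 the fibroblast medians were 0.60 and -0.22 and the endothelial medians 0.70 and -0.27. Whether the other cell types account for the high Fmo1 and Fmo2 values on replicate 2 was not tested.

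Fmo5, the ketone-oxidising form of gut epithelium, split the same arrays another way. Fmo5 stood at -0.05, -1.06 and 1.97 on WT DSS replicates 1, 2 and 3, so replicate 2 was the lowest of the 12 arrays and replicate 3 the highest. Its other 9 values lay between -0.47 and 0.36. The lowest Fmo5 value came from the array whose absorptive colonocyte markers had a median of -2.12 (18 of 19 below 0), while replicate 3 had a colonocyte median of 0.20 with single genes from -1.85 to 3.91. Group means were 0.29 ± 1.54 in WT DSS, 0.12 ± 0.21 in WT water, 0.08 ± 0.14 in TG water and -0.18 ± 0.29 in TG DSS, and neighbours differed by less than the larger SD. The DSS difference of Fmo5 in WT was 0.17 ± 0.58, or 0.84 ± 0.45 without replicate 2 and -0.67 ± 0.28 without replicate 3, none of which passed.

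**Figure D2:**
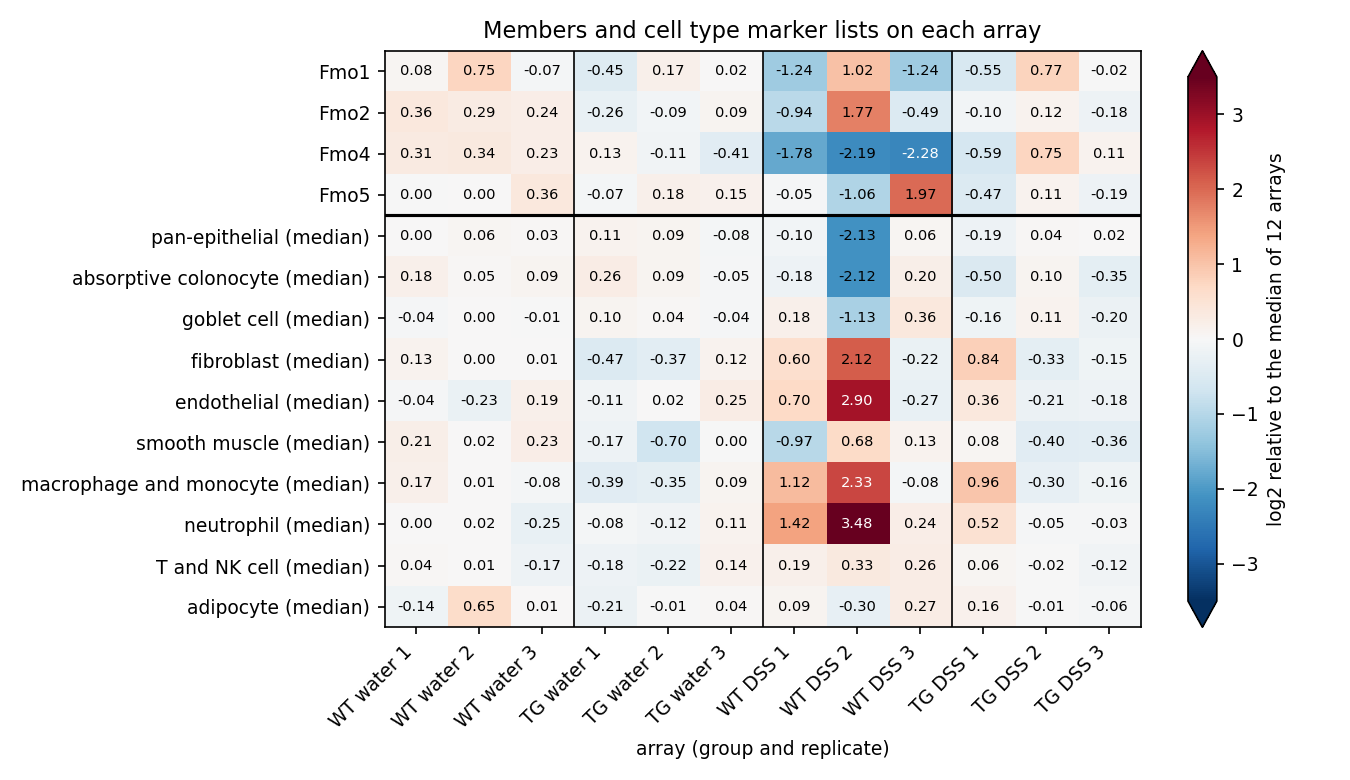
Heat map of the 4 genes (upper rows) and of the median of 10 cell type marker lists (lower rows), with 1 column per array and the log2 value relative to the 12-array median printed in each cell. WT DSS replicate 2 has 2.90 for endothelial and -2.13 for pan-epithelial markers, and there Fmo1 and Fmo2 are high while Fmo4 and Fmo5 are low.

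Without injury, Fmo2 and Fmo4 were lower on each TG water array than on any WT water array. The differences were -0.38 ± 0.54 for Fmo2 and -0.42 ± 0.29 for Fmo4, and neither passed (limma adjusted p = 1 for both, n = 3 arrays per group). Arrays that did not overlap were thus seen for 2 of 4 members and for 4.98% of all genes, and 3 against 3 arrays cannot give an exact permutation p below 0.1. The SE of Fmo2 drew on the WT DSS arrays, where its SD was 1.45 against 0.06 and 0.17 in the water groups. Fmo1 stood at -0.34 ± 0.57 and Fmo5 at -0.03 ± 0.58, with overlapping arrays, and Fmo1 at -0.10 without WT water replicate 2 and -0.16 without TG water replicate 1. No member passed, as no gene did (0% of 19935 in limma, 61 with an unadjusted p under 0.05). The difference of Fmo2 was -0.38 ± 0.13 without WT DSS replicate 2 (limma adjusted p = 1). Fibroblast medians were -0.47, -0.37 and 0.12 on the TG water arrays and 0.005 to 0.13 on the WT water arrays. Smooth muscle medians were -0.17, -0.70 and -0.001 on the TG water arrays and 0.21, 0.02 and 0.23 on the WT water arrays, and 7 of 12 of its markers were lower without overlap. Enteric neuron and glia medians were -0.10, -0.32 and -0.08 against 0.004, 0.27 and -0.01, and 5 of 10 markers were lower without overlap. Smooth muscle and enteric neuron and glia medians were thus lower in TG water than in WT water, as Fmo2 and Fmo4 were. Within TG water all of these lists were highest on replicate 3, where Fmo2 was highest (0.09) and Fmo4 lowest (-0.41). The part of these cells in the differences was not tested.

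In TG mice DSS moved no member past the threshold. The differences were 0.16 ± 0.57 for Fmo1, 0.03 ± 0.54 for Fmo2 and -0.27 ± 0.58 for Fmo5, beside that of Fmo4 above (limma adjusted p = 1 for each). The arrays of the 2 groups overlapped for 4 of 4 members, and they did not overlap for 13.4% of all genes. No gene passed in limma (0% of 19935), while 475 had an unadjusted p under 0.05. TG DSS replicate 1 gave the lowest value of its group for Fmo1, Fmo4 and Fmo5, at -0.55, -0.59 and -0.47, and replicate 2 gave the highest value for each of the 4 genes. Without replicate 2 the differences of Fmo1, Fmo2 and Fmo4 turned to -0.19, -0.05 and -0.11. Fibroblast and macrophage medians were 0.84 and 0.96 on replicate 1, against -0.33 and -0.30 on replicate 2. Pan-epithelial and absorptive colonocyte medians were -0.19 and -0.50 on replicate 1, against 0.04 and 0.10 on replicate 2. The part of any of these cells was not tested.

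Under DSS, TG minus WT was 0.56 ± 0.57 for Fmo1, -0.17 ± 0.54 for Fmo2 and -0.47 ± 0.58 for Fmo5, none of which passed (limma adjusted p = 0.658, 0.912 and 0.728). Without WT DSS replicate 2 these were 1.31 ± 0.36, 0.66 ± 0.15 and -1.15 ± 0.45, so the sign of Fmo2 turned, and again none passed. Leaving out WT DSS replicate 1 or 3 gave 0.18 for Fmo1, and leaving out replicate 3 turned Fmo5 to 0.37. Interactions were 0.90 ± 0.81 for Fmo1, 0.22 ± 0.76 for Fmo2 and -0.44 ± 0.82 for Fmo5 (limma adjusted p = 0.859, 0.961 and 0.921). With WT DSS replicate 2 left out they were 1.66 ± 0.48, 1.05 ± 0.20 and -1.11 ± 0.60 and did not pass. With replicate 1 left out they were 0.52, -0.31 and -0.61, and with replicate 3 left out 0.52, -0.09 and 0.40. These comparisons share the WT DSS arrays with the first. Of the 4 genes, Fmo4 was thus the one whose WT DSS arrays lay close together, with an SD of 0.27 against 1.31, 1.45 and 1.54 for Fmo1, Fmo2 and Fmo5. As the known fall of Fmo4 on these arrays favours a gene with a small spread there, this is a description only.

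**Figure D3:**
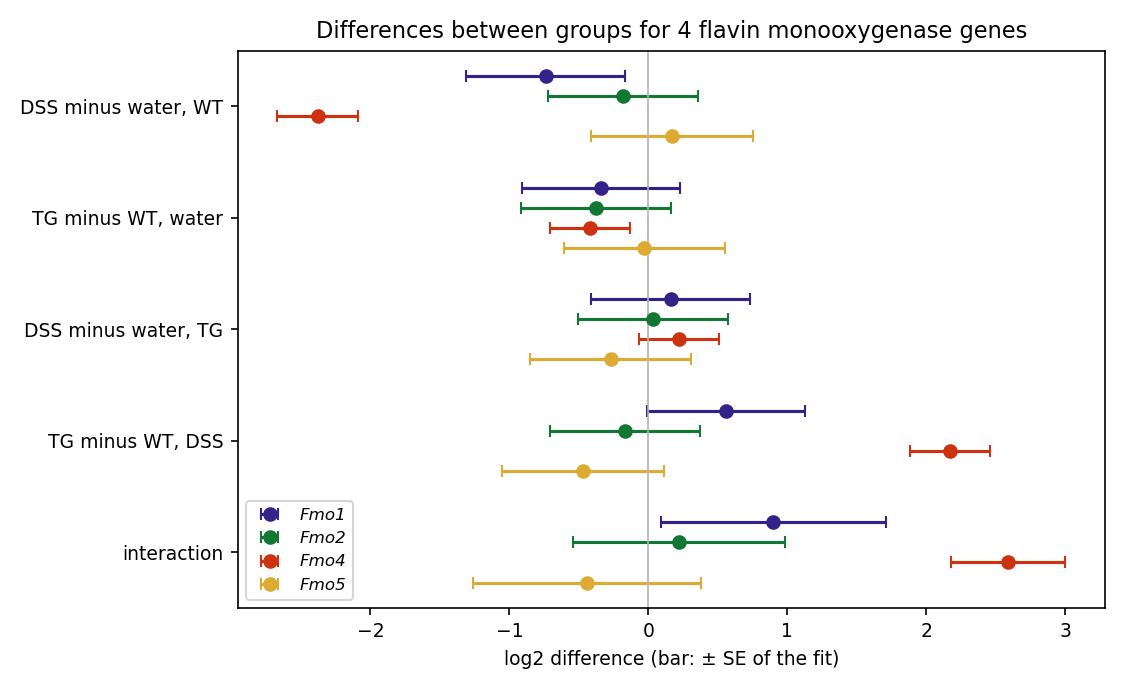
Log2 difference between groups (x axis) for 5 comparisons (y axis) and 4 genes (colours), with bars of ± 1 SE from the fit over 12 arrays. Fmo4 lies at -2.38 for DSS in WT and at 2.17 and 2.59 for the TG difference under DSS and the interaction, while the other genes lie within 1 log2 unit of 0.

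The measured genes beside the members on the chromosome had smaller differences than Fmo4. Prrc2c, next to Fmo4, differed by 0.08 ± 0.10 under DSS in WT, and Mroh9, the next measured gene beyond Fmo2, by -0.01 ± 0.09 (limma adjusted p = 0.761 and 0.974). On either side of Fmo5, Chd1l stood at -0.21 ± 0.17 and Prkab2, a subunit of AMP-activated kinase, at -0.18 ± 0.18 (limma adjusted p = 0.615 and 0.693). Fmo9, the other family member measured, lay between -0.17 and 0.23 on all 12 arrays and differed by -0.05 ± 0.12 under DSS in both WT and TG.

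Genes with the most similar pattern were found by Pearson correlation over the 12 arrays, which describes mainly how the 3 WT DSS arrays stand to the rest. The genes most like Fmo4 were Ephb3, an ephrin receptor of the crypt, at r = 0.975, Esrrg, an orphan nuclear receptor, at 0.971, and Mptx1, a mucosal pentraxin, at 0.966. Over the 9 arrays outside WT DSS these were 0.905, 0.833 and 0.804. Esrrg stood at -0.77, -1.38 and -1.23 on the WT DSS arrays and between -0.42 and 0.28 on the others. For Fmo5 they were Bace2, an aspartyl protease, at 0.98, Xpnpep2, an aminopeptidase, at 0.975 and Ces2b, a carboxylesterase, at 0.958, falling to 0.836, 0.693 and 0.573 over the 9 arrays.

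For Fmo2 the nearest genes were Brinp2, Sgsh, a lysosomal sulfatase, and Kank2, at 0.963, 0.957 and 0.955, and at 0.66, 0.631 and 0.589 without the WT DSS group. For Fmo1 they were Adam15, a membrane metalloprotease, Spop, a ubiquitin ligase adaptor, and Zfp251, at 0.937, 0.925 and 0.879, and at 0.801, 0.716 and 0.522. Among the members, Fmo1 and Fmo2 had r = 0.798, Fmo1 and Fmo4 0.425, and Fmo2 and Fmo4 -0.0518. With WT DSS replicate 2 left out the 3 values were 0.825, 0.891 and 0.796, and over the 9 arrays outside WT DSS they were 0.56, 0.693 and 0.411. The low values of Fmo4 against Fmo1 and Fmo2 thus rested on that array, and the high values without it rested in part on the other 2 WT DSS arrays. Fmo5 had r of -0.541, -0.535 and -0.166 with Fmo1, Fmo2 and Fmo4 over 12 arrays, and of 0.448, 0.46 and 0.424 over the 9 arrays, so each sign came from the WT DSS group.

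**Figure D4:**
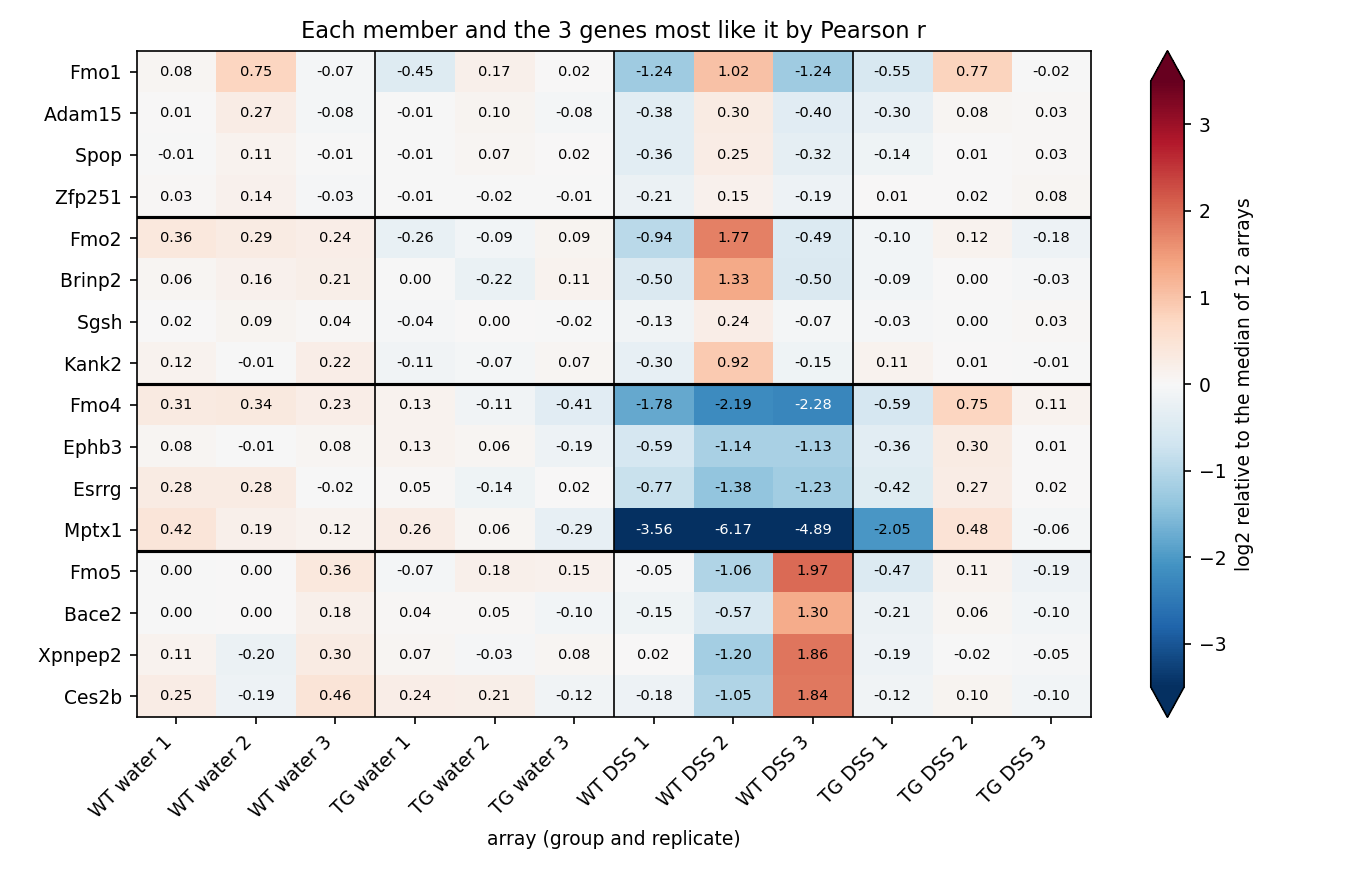
Heat map of each flavin monooxygenase gene with the 3 genes of highest Pearson correlation below it, as log2 values relative to the 12-array median on each array; the colour scale stops at 3.5 in either direction. The block of Fmo4 is low on all 3 WT DSS arrays, and the block of Fmo5 is low on replicate 2 and high on replicate 3.

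Lists of genes around the family were read beside the members. The lists were chosen with earlier results of these data known. Their p-values for DSS in WT are therefore descriptions and not independent evidence. Conjugating enzymes, which act on oxidised drugs, had a median of -0.52 for DSS in WT over 34 measured of 40 genes, where the median of all genes was -0.04. Of these 1 was lower and 0 higher in limma, where 0.171% of all genes passed. It was Gstm4, a glutathione transferase, which fell by 0.76 ± 0.11 (limma adjusted p = 0.0373). Gstm6 and Gstm3, of the same gene family, stood at -1.94 ± 0.37 and -1.28 ± 0.29 (limma adjusted p = 0.067 and 0.0971). The list's array medians were -0.22, -1.17 and 0.004 on WT DSS replicates 1, 2 and 3, so replicate 2, where pan-epithelial markers had a median of -2.13, gave the lowest. Without that array the list's median was -0.08, where that of all genes was -0.03. Gstm4 still passed at -0.68 ± 0.12 (limma adjusted p = 0.0443), where 0.461% of all genes did. In TG the median for DSS was -0.09 with 0 of 34 passing, and Mgst1, a microsomal glutathione transferase, stood at 0.53 ± 0.09 (limma adjusted p = 1).

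Cytochrome P450s, the other large family of microsomal oxygenases, had a median of -0.25 for DSS in WT over 26 of 27 genes and of -0.13 in TG, with 0 passing in either. Cyp2f2 came nearest at -3.09 ± 0.50 (limma adjusted p = 0.0548), and stood at -1.75, -3.88 and -2.99 on the WT DSS arrays against -0.96 to 0.50 elsewhere. Without WT DSS replicate 2 the WT median of the list turned to 0.07. Cyp2f2 then passed at -2.58 ± 0.44 (limma adjusted p = 0.0431), where 0.461% of all genes did. Cyp2c68 stood at -2.69 ± 0.60 in WT and at -0.82 ± 0.60 in TG (limma adjusted p = 0.0966 and 1). Cyp2u1 was lower on each DSS array than on any water array in both genotypes, by -0.83 ± 0.19 in WT and -0.69 ± 0.19 in TG, without passing (limma adjusted p = 0.103 and 1). Other microsomal and flavin oxidases had medians of 0.04 in WT and 0.001 in TG over 17 of 19 genes, with 0 passing, and the WT median turned to -0.04 without WT DSS replicate 2. Maob, a monoamine oxidase that also carries FAD, stood at -1.07 ± 0.18 in WT (limma adjusted p = 0.0618). Xdh, the xanthine dehydrogenase, went the other way at 1.03 ± 0.26 (limma adjusted p = 0.124).

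No gene that supplies the cofactors passed. NADPH-producing enzymes had medians of -0.11 in WT and 0.08 in TG over 13 of 14 genes, and genes of riboflavin uptake and FAD synthesis -0.30 and -0.17 over 3 of 5, with 0 passing in either list. The WT medians were 0.02 and -0.08 without WT DSS replicate 2. Aldh1l1 and Mthfd1, enzymes of folate metabolism, stood at -1.32 ± 0.41 and -0.83 ± 0.19 in WT (limma adjusted p = 0.181 and 0.102), and Me2, a mitochondrial malic enzyme, at -1.03 ± 0.29 (limma adjusted p = 0.149). With WT DSS replicate 2 left out, Aldh1l1 stood at -0.85 ± 0.32, Mthfd1 at -0.59 ± 0.13 and Me2 at -0.63 ± 0.16, none passing. Slc52a3, a riboflavin transporter, stood at -0.53 ± 0.17 in WT (limma adjusted p = 0.191), and at -0.30 ± 0.09 without that array. Genes of taurine and cysteamine metabolism, the pathway of the Fmo1 substrate hypotaurine, had medians of -0.18 and -0.01 over 14 of 14, with 0 passing, and the WT median was -0.13 without WT DSS replicate 2. Cdo1, the cysteine dioxygenase that starts the route to hypotaurine, stood at -1.31 ± 0.24 in WT (limma adjusted p = 0.0631), and read -0.97, -1.60 and -1.09 on the 3 WT DSS arrays. Csad, the decarboxylase that follows it, stood at -0.71 ± 0.19 (limma adjusted p = 0.136).

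Regulators of drug metabolism and gut epithelium had a median of -0.41 for DSS in WT over 27 of 30 genes, with 1 lower and 0 higher, and of -0.06 in TG with 0 passing. The 1 was Esrrg, which fell by 1.31 ± 0.19 (limma adjusted p = 0.0373), where 0.171% of all genes passed. As the list was chosen with earlier results known, this p-value is not independent evidence. Foxa2, a forkhead factor of gut and liver, stood at -1.31 ± 0.25 (limma adjusted p = 0.067), with -0.61, -1.73 and -1.51 on the WT DSS arrays, and Ppard, a fatty acid receptor, at -0.81 ± 0.24 (limma adjusted p = 0.174). The list's array medians were -0.22, -1.38 and -0.09 on those arrays, again lowest on replicate 2. Without that array the median was -0.10 and Ppard stood at -0.46 ± 0.11. Esrrg still passed at -1.18 ± 0.20 (limma adjusted p = 0.0431), where 0.461% of all genes did. In the 2 comparisons of TG with WT and in the interaction, 0 genes of any of these 8 lists passed.

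**Figure D5:**
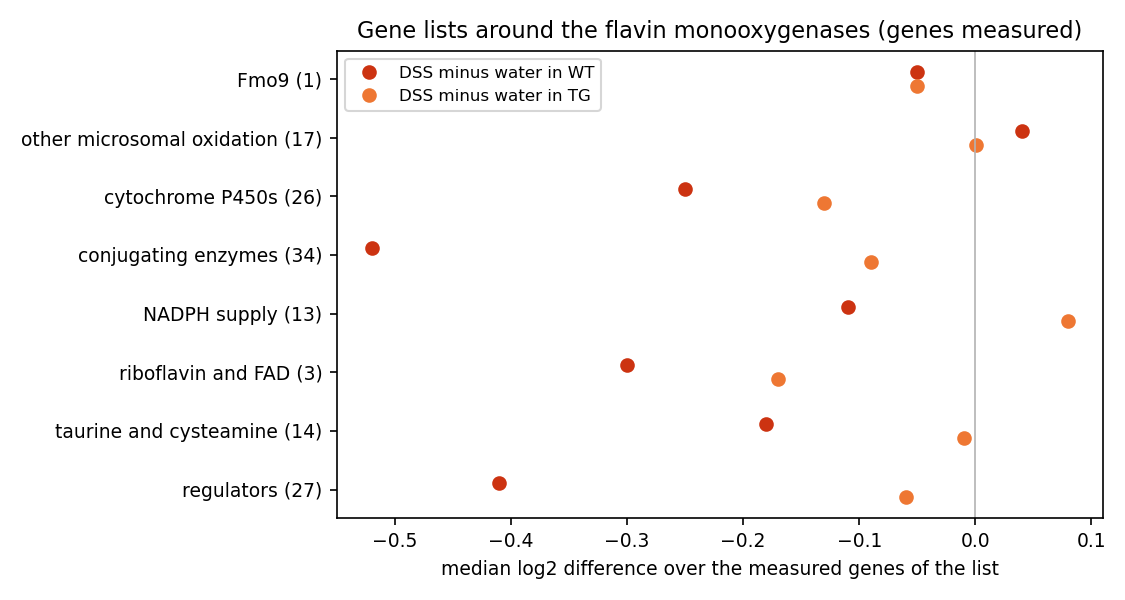
Median log2 difference between DSS and water (x axis) for 8 gene lists around the flavin monooxygenases (y axis, with the number of genes measured), in WT and in TG. The WT medians run from -0.52 for conjugating enzymes to 0.04 for other microsomal oxidation, and the TG medians from -0.17 to 0.08; without WT DSS replicate 2 the WT median of conjugating enzymes was -0.08.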

How the data were processed

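The authors deposited 1 value for each of 28815 probe sets on 12 arrays. RMA and Affymetrix Expression Console are named in the submitters' processing notes, without versions. No source states the log base of the deposited values, which were read as log2 because RMA works on that scale. Each probe set had a median of 0 over the arrays (within 5e-07), so no filter on dim probes was possible. The 21780 probe sets with exactly 1 gene symbol were averaged to 19935 genes, and 7035 with several or no symbols were left out. Each member had 1 probe set.

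In limma 3.58.1 (R 4.3.3, lmFit and eBayes), the model had 1 mean for each of the 4 groups and used all 12 arrays. Two-sided p-values were adjusted across the 19935 genes (Benjamini-Hochberg), and passing means an adjusted p below 0.05. The script was tested on simulated data. With 3 arrays per group, their number limits the precision. Python 3.11.15 with pandas 2.3.3 and numpy 2.4.6 made the tables.

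The members and gene lists were chosen with earlier results of these data known, and the sequence words after the values were seen. The text names the members, Fmo9, up to 3 genes per list with the smallest p for DSS in WT or in TG, the 3 genes most correlated with each member, and the nearest measured neighbours on the chromosome. Promoter sequences are from RefSeq (GRCm38.p6), with windows for 3 of 4 members. Alternatives were the compared groups alone, a replicate block, single probe sets, centring of each array, weights per array or per group, a threshold of 0.01 and each array left out. The lists and their named genes were also fitted without WT DSS replicate 2, an alternative added after seeing the data.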

Additional observations from a re-analysis of the deposited data

How the results depend on the processing

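Of 116 member differences under other settings, 104 kept their direction and side of the threshold, 2 turned in sign, and the other 10 kept their direction and crossed the threshold. For DSS in WT, Fmo4 stayed at -2.38 but did not pass with the 2 groups alone, with weights per group or with the replicate block, each of which left 0 members passing. With weights per array Fmo2 passed at -1.03, giving 2 members. Nothing is read from these calls, as the DSS contrast in WT was known when the genes were chosen. For TG minus WT under DSS, Fmo4 at 2.17 did not pass with the 2 groups alone, the replicate block, single probe sets or weights per group, nor at 2.14 with each array centred, and 0 members passed in each. With weights per array the interaction of Fmo4 passed at 2.55 (1 member), Fmo2 turned to 0.63 for TG minus WT under DSS, and Fmo5 turned to 0.11 for TG minus WT at water. At an adjusted p under 0.01, 0 members passed. The cause was not tested. Over all genes, same-numbered arrays did not deviate together (r from -0.484 to 0.377 over 18 pairs of arrays, 1 above 0.1). Fmo1, however, was highest on replicate 2 in each group, and the block lowered its SE from 0.57 to 0.36. A correlation over all genes cannot decide pairing for each gene, so the calls lost with the block are kept as given.

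With 1 array left out, 208 of 240 differences kept direction and call. DSS in WT ranged from -1.50 to -0.37 for Fmo1, -1.01 to 0.34 for Fmo2, -2.53 to -2.28 for Fmo4 and -0.67 to 0.84 for Fmo5, with 0 to 2 members passing. DSS in TG ranged from -0.19 to 0.46, -0.05 to 0.12, -0.11 to 0.56 and -0.42 to -0.12 in the same order. TG minus WT at water ranged from -0.50 to -0.10, -0.47 to -0.30, -0.55 to -0.28 and -0.10 to 0.08 in that order. Under DSS it ranged from 0.18 to 1.31 for Fmo1, -0.69 to 0.66 for Fmo2, 1.84 to 2.51 for Fmo4 (0 to 1 members passing) and -1.15 to 0.37 for Fmo5. The interaction ranged from 0.52 to 1.66 for Fmo1, -0.31 to 1.05 for Fmo2, 2.26 to 2.94 for Fmo4 (0 to 1 members passing) and -1.11 to 0.40 for Fmo5. Variance shrinkage with a trend was not run, since the centred values carry no level, and the interaction needs all 4 groups. Without absolute signals, how far each gene lies above background is unknown.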
